A study of Mus musculus and Rattus norvegicus with 96 samples.

Results

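The liver pieces described here had been frozen before they met a fixative, and they differed in which fixative followed. Of the 96 samples of the series, 24 are mouse liver of this kind. Of the 24, 12 went from the freezer into 10% neutral buffered formalin (FR > FFPE), and 12 into 70% ethanol (FR > OH). Rat liver and lung pieces that were frozen and then fixed in formalin are not among them. The 24 were taken by preservation label among the mouse liver samples. They form 12 pairs, since each of 12 mice gave 1 piece to each fixative. The mice were male B6C3F1 animals of 10 to 11 weeks. Of these, 6 had plain water (Con), and the water of the other 6 held 600 ppm phenobarbital (PB) through 7 days. The formalin label gives 18 to 24 h of fixation. Both kinds of piece were embedded in paraffin, and the methods describe 1 extraction for embedded tissue, from 2 curls of 10 µm, written for FFPE samples and naming no other for ethanol blocks. RNA was depleted of ribosomal RNA and sequenced as stranded total RNA. The pieces came from animals of 1 strain and sex, and the tissue had been frozen before fixation began. The question was whether RNA sequencing differs after a fixative that joins RNA and protein by methylene bridges (formalin) and one that precipitates them by removing water (ethanol).

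Formaldehyde adds hydroxymethyl groups to the amino groups of bases and links neighbouring amino groups, and heating during extraction undoes part of this. Ethanol makes no such bonds. In the hepatocyte, the main cell of the liver, the most abundant messages code for secreted plasma proteins and are translated at the endoplasmic reticulum (ER), while the nucleus holds long noncoding RNAs and intron-bearing precursors that a total RNA library also reads.

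Total counts ranged from 5534973 to 10681771 in FR > FFPE and from 8167316 to 11539026 in FR > OH. The total did not differ between fixatives beyond the spread over mice (formalin higher in 8 of 12 mice, exact two-sided sign-flip permutation p = 0.835). The smallest library was that of Con mouse 21C in formalin. Both libraries of 21C stood farther from the rest of their groups than any other (root-mean-square log2 distance 0.460 in formalin and 0.390 in ethanol, against 0.280 for the next Con library in each fixative), so leading counts are also given without that mouse. Hepatocyte markers identified the tissue: all 10 were measured, and their summed level was 34633 to 66068 CPM (counts scaled to the library by TMM, a trimmed mean of log ratios, and given per 1e6) in FR > FFPE and 41060 to 75416 CPM in FR > OH. Cyp2b10, the P450 that phenobarbital induces, followed the treatment labels in every library, with at most 0.821 CPM in Con against at least 963 CPM in PB in FR > FFPE, and at most 2.67 CPM against at least 1446 CPM in FR > OH.

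Formalin and ethanol left the same livers with many small differences in mRNA level and few large ones. Of 13370 genes tested within mice, 3726 (27.9%) differed at an adjusted p under 0.05 by edgeR's quasi-likelihood test. Of all tested genes, 1618 (12.1%) were higher in FR > FFPE and 2108 (15.8%) were lower. Their median size was 0.22 on the log2 scale among those higher and −0.21 among those lower, and 97.3% of the called genes differed by less than 1.5-fold. Only 7 genes (0.0524%) passed 2-fold. In 12 of 12 mice 250 of the called genes were higher in formalin and 540 were lower. Without mouse 21C, 4129 genes were called.

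The split between directions depends on how libraries are scaled. Under TMM the median log2 fold change of all genes was 0.00 and 43.4% of calls were higher in formalin, whereas scaling to the total count moved the median to 0.13 and the share of higher calls to 88.6% of 5435 calls. The 10% of genes with the highest level had 15.4% of members higher and 40.2% lower under TMM. Directions below are therefore relative to the median gene. Library titles carry a number after the letter L, called lane below, although no label says that it is a sequencing lane. Lane cannot be told apart from fixative within a mouse, since it differed within every pair. Con formalin libraries had lane 3 and PB ones lane 4, and ethanol libraries lane 4 (3 Con mice) or 5. A fit with a lane term called 0 genes (1364 at an unadjusted p under 0.05).

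**Figure D1:**
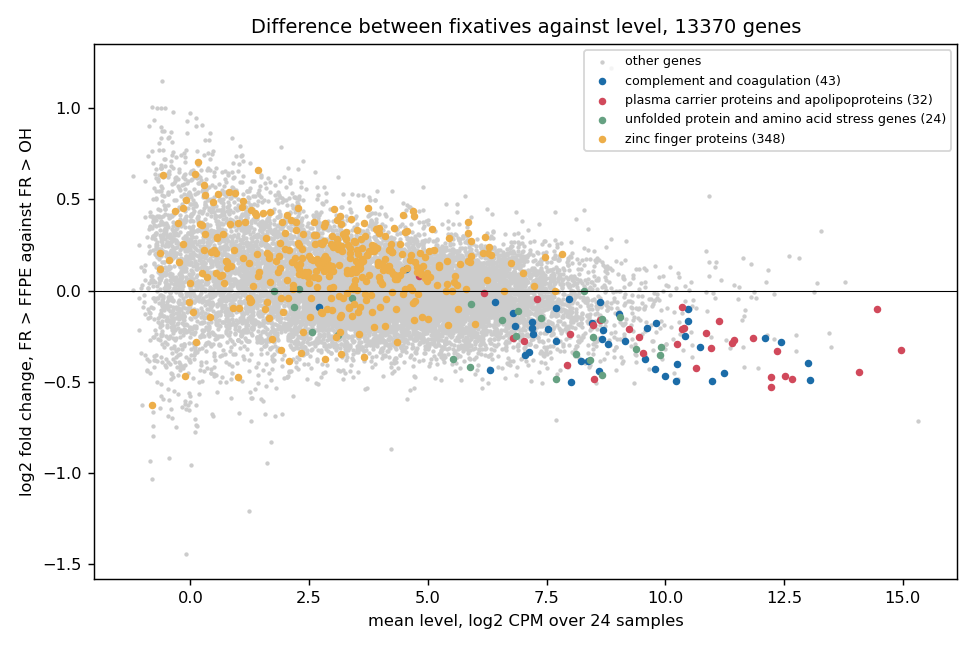
Each point is 1 of the 13370 genes tested. The horizontal axis is its mean level (log2 CPM over 24 samples) and the vertical axis the log2 fold change of FR > FFPE against FR > OH within mice. Coloured points are 4 gene lists: plasma carriers, complement and coagulation and the unfolded protein and amino acid stress genes lie mainly below 0, zinc finger proteins mainly above, and differences of most genes stay within −0.29 and 0.36 (the 5th and 95th percentiles).

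The share of counts held by the 10 largest genes of a library was lower in formalin in every mouse, at 15.2 to 19.7% (median 16.9%) in FR > FFPE and 16.6 to 21.7% (median 19.7%) in FR > OH. The mean difference was −2.34 percentage points (SD 0.976, exact sign-flip permutation p = 4.88e-04, the smallest that 12 pairs can give, adjusted p = 0.00122 over 10 measures). The ribosomal RNA locus Rn45s, described below, was among these genes. The share of counts on rRNA-derived loci alone had a mean difference of −1.64 percentage points, so the 2 measures overlap. More genes had at least 1 count in formalin when all libraries were thinned to the depth of the smallest, by 34.3 genes on average (SD 23.7, higher in 12 of 12 mice, exact permutation p = 4.88e-04, adjusted p = 0.00122). They numbered 13254 to 13326 in formalin and 13224 to 13310 in ethanol, of the 13370 tested. Tested genes had been kept for their counts, so nearly all were seen in each library. Counts were thus spread over slightly more of the tested genes in FR > FFPE. The distance of a library from the other mice of its group did not differ between fixatives beyond the spread over mice (mean difference −0.000688, SD 0.0277, exact permutation p = 0.941).

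Messages for clotting, complement and lipid-carrying proteins that hepatocytes secrete into plasma were lower in formalin. Of 43 genes of complement and coagulation, 36 were lower, 0 were higher and 7 did not pass (median log2 fold change −0.26, against 0.00 over all genes), and 26 of them were lower in 12 of 12 mice. Of 32 plasma carriers and apolipoproteins, 26 were lower and 0 higher (median −0.27). Both medians were negative in each of the 12 mice, and both stayed negative under the other scalings (−0.14 for each with the total count). Without mouse 21C the counts were 35 and 27.

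F12 (chromosome 13, 55417958 to 55426804, mm10), which encodes coagulation factor XII, had the smallest adjusted p of all genes. It ranged over 172, 218 and 244 CPM (lowest, median and highest) in FR > FFPE and over 264, 301 and 359 CPM in FR > OH. The ranges did not overlap, and formalin differed from ethanol by −0.50 on the log2 scale (SE 0.036, edgeR adjusted p = 2.36e-11). Prothrombin (F2) ranged over 804, 1023 and 1079 CPM in formalin and 1237, 1410 and 1519 CPM in ethanol (log2 fold change −0.49, SE 0.037, edgeR adjusted p = 3.9e-11). Its groups did not overlap either. Vtn, encoding the adhesive plasma protein vitronectin, fell by 0.50 (SE 0.045) on the log2 scale.

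Apolipoproteins, which carry lipid in plasma, showed the same sign. Apoa1, the main protein of high-density lipoprotein, ranged over 2851, 3929 and 5035 CPM in formalin and 4744, 5484 and 6794 CPM in ethanol (log2 fold change −0.53, SE 0.053, edgeR adjusted p = 1.38e-08). The ranges overlapped slightly, through the formalin library of mouse 21C, whose within-mouse difference was −0.02. Apoe fell by 0.49 (SE 0.049) and Alb, the gene of albumin, by 0.33 (SE 0.050). The difference in Alb had the opposite sign in 1 of 12 mice. Secreted matrix proteins of hepatocytes and stroma had few calls. Of 51 collagens and matrix proteins 4 were lower and 3 higher, smaller shares than the 15.8% and 12.1% of all genes. Of the 4, those with the largest falls were Col18a1 (collagen XVIII, the source of endostatin), at −0.45 (SE 0.048), and Fn1 (fibronectin) at −0.42 (SE 0.039).

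**Figure D2:**
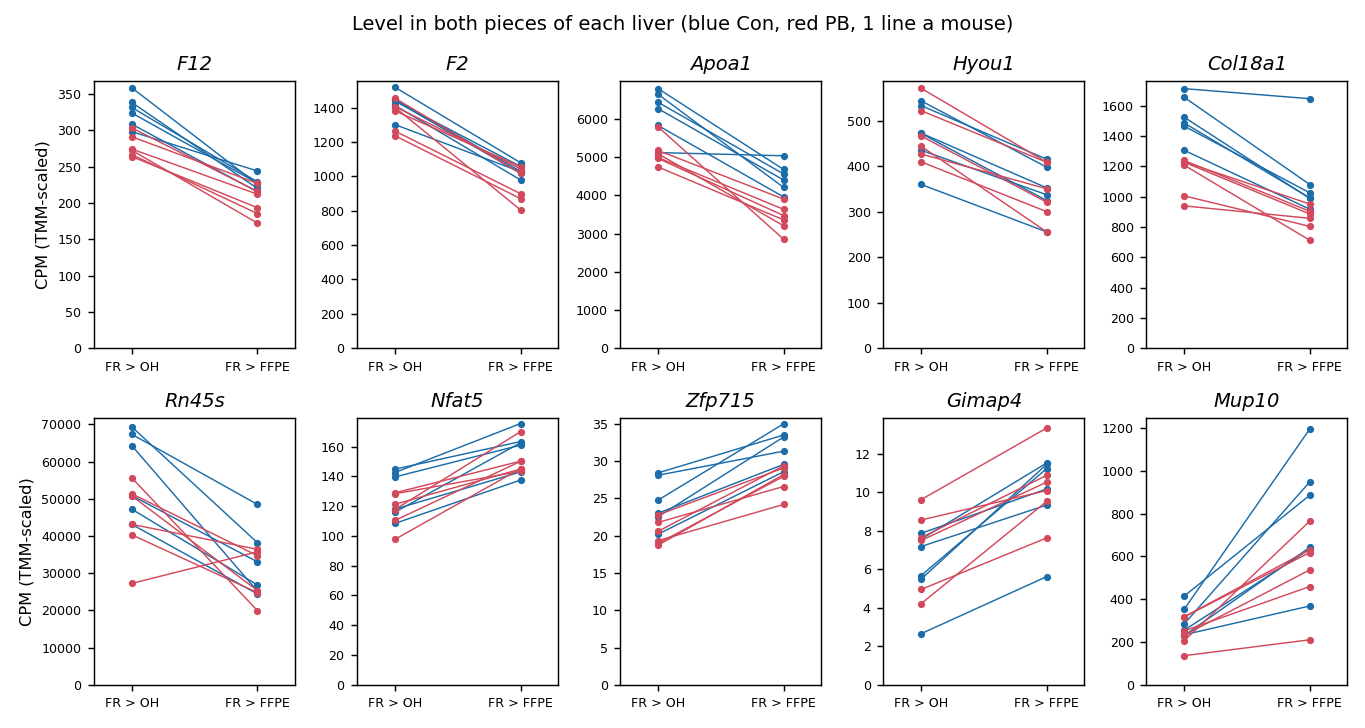
Level of 10 named genes (CPM, axes from 0) in both pieces of each liver, FR > OH on the left and FR > FFPE on the right, with 1 line per mouse, blue for Con and red for PB. The lines of F12, F2, Apoa1, Hyou1 and Col18a1 go down in all 12 mice and those of Nfat5, Zfp715, Gimap4 and Mup10 go up in all 12, while Rn45s goes down in 11.

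Genes of the machinery that folds, modifies and sorts secreted proteins were lower as well. Of 24 genes of the unfolded protein and amino acid stress responses, which cells switch on when protein folding or amino acid supply fails, 17 were lower and 0 higher (median −0.24, negative in 12 of 12 mice). Atf5, a transcription factor of the amino acid response, ranged over 135, 172 and 218 CPM in formalin and 181, 257 and 316 CPM in ethanol (log2 fold change −0.49, SE 0.039, edgeR adjusted p = 8.88e-11). Hyou1, an ER chaperone, ranged over 256, 344 and 416 CPM in formalin and 360, 470 and 572 CPM in ethanol (−0.46, SE 0.037, edgeR adjusted p = 1.07e-10). The members that differed thus include ER chaperones as well as stress regulators, and the widely used stress marker Ddit3 did not pass.

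A further 2 lists were chosen after values had been seen. Of 46 genes of ER translocation and N-glycosylation, 34 were lower and 0 higher (median −0.19), led by Os9, a lectin that sends misfolded glycoproteins to degradation (117, 138 and 163 CPM in formalin, 185, 194 and 212 CPM in ethanol, log2 fold change −0.51, SE 0.038), and Prkcsh, a subunit of the glucosidase that trims N-glycans (−0.51, SE 0.043). The ranges of Os9 did not overlap. Of 44 genes of lysosomal enzymes and membrane proteins, 29 were lower and 2 higher (median −0.20), among them Gaa, the enzyme that breaks down lysosomal glycogen (−0.49, SE 0.042), and Naglu, which degrades heparan sulphate (−0.47, SE 0.054). Qsox1, which forms disulphide bonds in secreted proteins, fell by 0.46 (SE 0.036) and was lower in 12 of 12 mice. Scaling to the total count left 18 of the ER genes and 17 of the lysosomal genes lower, with 6 of each higher.

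**Figure D3:**
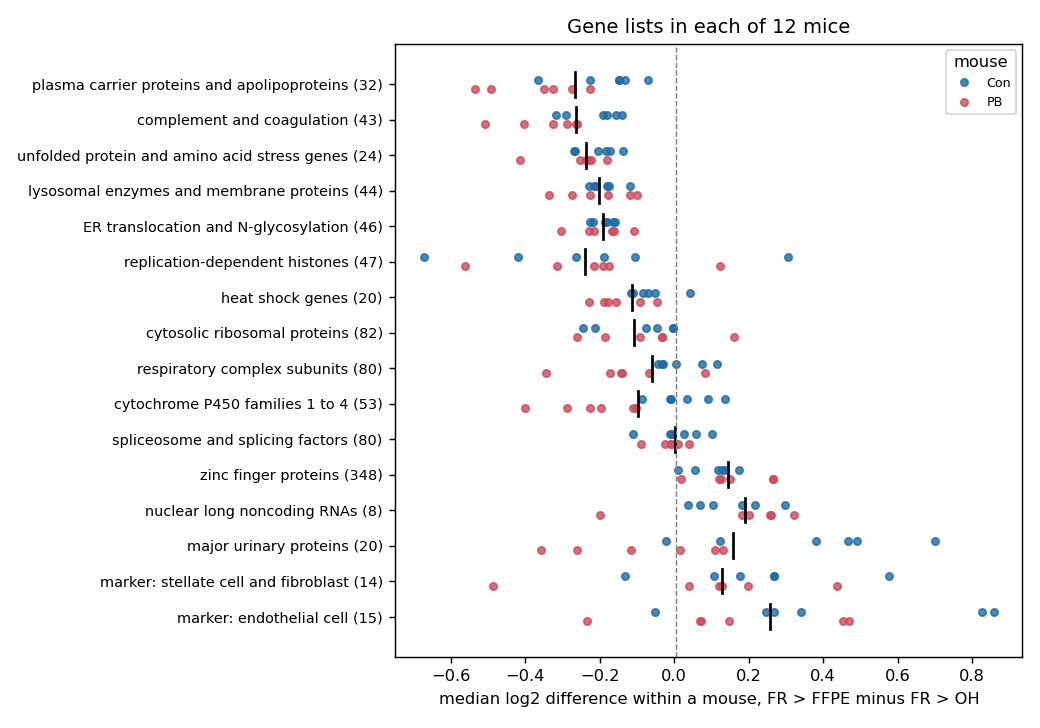
Median within-mouse log2 difference (FR > FFPE minus FR > OH) over the genes of each list, 1 point per mouse (blue Con, red PB). The number of genes tested is in parentheses, the black bar is the median of the fitted log2 fold changes and the dashed line that of all genes. The top 5 lists are below 0 in all 12 mice, zinc finger proteins are above 0 in all 12, and urinary protein and cell type lists spread widely.

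Housekeeping lists moved less. Of 82 cytosolic ribosomal proteins, 33 were lower and 3 higher (median −0.11), of 78 mitochondrial ribosomal proteins 20 were lower and 2 higher (−0.09), and of 80 respiratory complex subunits 28 were lower and 3 higher (−0.06). Proteasome subunits had 10 lower and 0 higher of 38 (−0.05). Splicing factors had 13 lower and 11 higher of 80 (0.00), near the 15.8% and 12.1% of all genes. The medians of the first 4 turned positive when libraries were scaled to their totals. The same messages did not all go one way: in the respiratory chain, Ndufb7 of complex I fell by 0.30 (SE 0.053) while Uqcrb of complex III rose by 0.36 (SE 0.063). Rps2, a protein of the small ribosomal subunit, fell by 0.37 (SE 0.050) in 12 of 12 mice.

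Genes of liver metabolism that were called were mainly lower, with small medians. Of 31 genes of fatty acid and cholesterol synthesis, 10 were lower and 1 higher (median −0.12). Of 25 genes of fatty acid oxidation, 9 were lower and 0 higher (−0.06), with Acads, the short-chain acyl-CoA dehydrogenase, at −0.31 (SE 0.041). Cytochrome P450 genes, which oxidise drugs and steroids, had 18 lower and 5 higher of 53 (−0.10): Cyp2a12 fell by 0.40 (SE 0.037) in 12 of 12 mice, and Cyp1b1, at a median of 1.18 CPM in formalin and 0.570 CPM in ethanol, rose by 0.90 (SE 0.25). The medians of these 3 lists also changed sign with the total count.

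Counts on the ribosomal RNA locus Rn45s were lower in formalin, and it was the only 1 of 3 tested rRNA-derived loci to be called. Rn45s, the gene of the 45S ribosomal precursor, ranged over 19935, 29938 and 48488 CPM in FR > FFPE and 27254, 50824 and 69320 CPM in FR > OH. It was lower in 11 of 12 mice (log2 fold change −0.71, SE 0.14, edgeR adjusted p = 0.00266). Libraries had been depleted of ribosomal RNA, so the level is of what remained, and the part of depletion in it was not tested. Whether these reads came from precursor or from mature ribosomal RNA was not tested either. Loci listed as rRNA-derived held a median of 3.18% of counts in formalin and 4.97% in ethanol (mean difference −1.64 percentage points, SD 1.24, exact sign-flip permutation p = 0.00146, adjusted p = 0.00209).

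Small nucleolar RNAs guide the methylation (C/D class, Snord) or pseudouridylation (H/ACA class, Snora) of ribosomal RNA and are cut from introns. Of 30 tested, 5 were lower and 0 higher (median −0.14), a share near the 15.8% of all genes that were lower. Without mouse 21C 8 were lower, and with the total count 3 were lower and 2 higher. Of the 5, Snora78 and Snord17 had the largest falls, and Snora23 and Snord15b are shown with them because they too were called, chosen after their values were seen. The fifth was Snora74a (−0.53, SE 0.098). The sequences below are the GENCODE M21 transcripts (GRCm38), 5′ to 3′, with every G and C in capitals, printed because these short RNAs differ in G and C content. Snora78 lies at chr17:24719676-24719803 (minus strand) and has 64.1% G and C, Snord17 at chr2:144265979-144266216 (minus) with 51.7%, Snora23 at chr7:110046364-110046547 (plus) with 43.5%, and Snord15b at chr7:99479563-99479707 (minus) with 50.3%. The deposited table bounds Snora78 and Snord17 at slightly different ends.
Snora78: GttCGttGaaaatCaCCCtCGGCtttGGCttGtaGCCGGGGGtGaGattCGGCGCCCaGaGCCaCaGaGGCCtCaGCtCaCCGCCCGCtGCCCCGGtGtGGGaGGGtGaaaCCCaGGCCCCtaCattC
Snord17: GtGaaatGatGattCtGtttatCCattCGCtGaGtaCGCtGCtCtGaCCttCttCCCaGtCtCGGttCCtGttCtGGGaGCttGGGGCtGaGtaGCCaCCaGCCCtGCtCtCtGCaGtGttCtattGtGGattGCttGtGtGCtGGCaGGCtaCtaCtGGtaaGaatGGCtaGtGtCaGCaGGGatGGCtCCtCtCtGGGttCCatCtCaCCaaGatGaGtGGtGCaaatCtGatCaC
Snora23: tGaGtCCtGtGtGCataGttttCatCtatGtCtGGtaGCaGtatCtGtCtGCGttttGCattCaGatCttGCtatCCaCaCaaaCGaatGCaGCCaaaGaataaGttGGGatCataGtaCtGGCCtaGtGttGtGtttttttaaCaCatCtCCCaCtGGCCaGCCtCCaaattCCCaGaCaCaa
Snord15b: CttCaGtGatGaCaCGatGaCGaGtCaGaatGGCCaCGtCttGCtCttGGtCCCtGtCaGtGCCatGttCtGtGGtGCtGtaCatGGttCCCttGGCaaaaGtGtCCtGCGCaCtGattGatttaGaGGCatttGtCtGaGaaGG

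Snord17 ranged over 60.1, 156 and 245 CPM in formalin and 142, 228 and 421 CPM in ethanol (log2 fold change −0.71, SE 0.13, edgeR adjusted p = 0.00202, lower in 12 of 12 mice). The groups overlapped, although every mouse went the same way. It lies in an intron-bearing gene, Snx5, whose own log2 fold change was 0.09 (edgeR adjusted p = 0.132). Snora78 ranged over 5.17, 12.5 and 39.6 CPM in formalin and 11.3, 25.4 and 29.9 CPM in ethanol (−0.87, SE 0.24, edgeR adjusted p = 0.0178, lower in 11 of 12 mice). Snora23 (−0.27, SE 0.075) lies within Ipo7, which had a log2 fold change of 0.05, and Snord15b (−0.35, SE 0.096) within Rps3 (−0.20, edgeR adjusted p = 4.65e-04). Reads from a snoRNA and from the surrounding precursor cannot be told apart in these counts.

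Replication-dependent histone messages, which end in a stem-loop and carry no poly(A) tail, were lower for 12 of 47 genes and higher for 0 (median −0.24), where 15.8% of all genes were lower. The count lower was 6 without mouse 18B and 16 without 21C, 7 after thinning and 7 with the total count. Hist1h4c, encoding histone H4, ranged over 12.6, 18.3 and 24.9 CPM in formalin and 23.0, 29.1 and 33.1 CPM in ethanol (log2 fold change −0.60, SE 0.069, edgeR adjusted p = 1.59e-07). The groups barely overlapped and all 12 mice went down, as they did for Hist1h4h, another H4 gene (−0.54, SE 0.10). Histone genes of 1 type are near copies of each other, so how reads were divided among them is uncertain. The list's median was below 0 in 10 of 12 mice.

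Zinc finger genes and nuclear noncoding RNAs were on the higher side. Of 348 zinc finger proteins, the largest family of vertebrate transcription factors, 105 were higher and 14 lower (median 0.14, positive in 12 of 12 mice). Zfp715 ranged over 24.2, 29.2 and 34.99 CPM in formalin and 18.7, 22.1 and 28.4 CPM in ethanol (log2 fold change 0.41, SE 0.050, edgeR adjusted p = 2.29e-07). Of 8 nuclear long noncoding RNAs 4 were higher and 0 lower (median 0.19), with Kcnq1ot1, the antisense RNA of the imprinted Kcnq1 region, at 0.44 (SE 0.088) and Firre, which is retained at its site on the X chromosome, at 0.28 (SE 0.047). Chromatin modifiers, a list chosen after values had been seen, had 24 higher and 9 lower of 111 (0.04).

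The genes with the smallest adjusted p on the higher side differed by less than 1.5-fold. 6820431F20Rik ranged over 151, 184 and 201 CPM in formalin and 119, 143 and 166 CPM in ethanol (log2 fold change 0.37, SE 0.037, edgeR adjusted p = 6.25e-09). Nfat5, the transcription factor of the response to high salt, ranged over 138, 150 and 175 CPM in formalin and 97.7, 120 and 145 CPM in ethanol (0.33, SE 0.038, edgeR adjusted p = 8.28e-08). Epm2aip1 (0.32, SE 0.038) and Ccdc50 (0.31, SE 0.039) were also higher in 12 of 12 mice. All of these overlapped between groups while each mouse went up.

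The largest rises among genes seen in all 12 mice included several of cells other than hepatocytes. Gimap4, a GTPase of lymphocytes and endothelium, ranged over 5.62, 10.3 and 13.3 CPM in formalin and 2.65, 7.34 and 9.61 CPM in ethanol (log2 fold change 0.63, SE 0.087, edgeR adjusted p = 1.81e-06). Marcks, a substrate of protein kinase C at the membrane, rose by 0.57 (SE 0.067). Every mouse rose for both. Rttn (0.67, SE 0.12), a centriole protein, F630028O10Rik (0.60, SE 0.10) and the transporter of mitochondrial nucleotides Slc25a36 (0.51, SE 0.11) also did. Eda2r (0.95, SE 0.25), Dubr (0.74, SE 0.21), Gm10560 (0.67, SE 0.21) and Usp35 (0.55, SE 0.16) had medians under 2 CPM in both fixatives and wide errors.

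Markers of cell types gave a mixed picture. Of 15 endothelial markers 5 were higher and 0 lower (median 0.26, against 12.1% of all genes higher), and of 14 markers of stellate cells and fibroblasts 4 were higher and 0 lower (0.13). Their summed levels overlapped between fixatives, at 556 to 1034 CPM in formalin and 437 to 921 CPM in ethanol for endothelium and 376 to 748 and 366 to 698 CPM for stellate cells. None of the markers of these lists was at 0 in all libraries. The endothelial median varied between mice from −0.23 to 0.86, and that of stellate cells from −0.49 to 0.58; without mouse 21C the latter was 0.05, with 3 markers higher, and the former 0.22, with 4 higher. Leaving out 1 mouse gave 3 to 11 endothelial and 3 to 7 stellate markers higher, the most without mouse 20B and 3 endothelial ones without 18B, 75C, 80B, 8D or 90C. With the total count 15 endothelial and 7 stellate markers were higher. In bulk tissue, fewer cells of a type and less RNA per cell cannot be told apart, and the pieces of a liver were not the same cells.

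Ptprb, the phosphatase that marks vascular endothelium, ranged over 143, 231 and 318 CPM in formalin and 97.5, 167 and 258 CPM in ethanol (log2 fold change 0.43, SE 0.074, edgeR adjusted p = 7.01e-04). Lrat, which stores vitamin A in stellate cells, rose by 0.45 (SE 0.10) and Rgs5 of pericytes by 0.45 (SE 0.097). The groups overlapped for all 3. Among leukocyte genes, Ptprc (CD45) rose by 0.32 (SE 0.064), Ccr2 of monocytes by 0.62 (SE 0.14) and Vsig4 of Kupffer cells by 0.23 (SE 0.067). The Kupffer list as a whole had 2 of 12 higher and a median of −0.01 (0.12 with the total count). The neutrophil and monocyte list had 1 higher and 1 lower of 4 (median 0.19), and the lymphocyte list 1 higher and 0 lower of 3 (0.01). Of 10 hepatocyte markers 6 were lower and 0 higher (median −0.13), and Onecut2, on the list of bile duct markers, rose by 0.23 (SE 0.037) in 12 of 12 mice. The bile duct list as a whole had 1 higher and 0 lower of 8, with a median of −0.03. Adipocyte markers had 2 higher and 0 lower of 3, with Fabp4 the highest (0.64, SE 0.18) and the lowest member at −0.58. Of the others, Plin1, Lep and Retn were at 0 in all 24 libraries.

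Few genes changed 2-fold. Mup10, one of the urinary proteins that liver secretes to bind pheromones, had the largest rise: 210, 633 and 1195 CPM in FR > FFPE and 136, 254 and 415 CPM in FR > OH (log2 fold change 1.22, SE 0.12, edgeR adjusted p = 2.05e-05, up in each of 12 mice). Mup genes are near-identical copies, and an estimation step divided reads among them, so the gain of 1 copy is uncertain. Of 20 of them 4 were higher and 0 lower (median 0.16), Mup5, at a median of 1.35 CPM in formalin, among them (0.86, SE 0.21). Counts on the family as a whole were 2.97 to 6.53% of a library in formalin and 2.61 to 5.75% in ethanol (mean difference 0.757 percentage points, SD 0.893, higher in 10 of 12 mice, exact sign-flip permutation p = 0.0127, adjusted p = 0.0159). These are shares of the total count. Under TMM the median of the list was above 0 in 8 of 12 mice, and it was 0.41 in Con and −0.10 in PB.

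The other 2-fold genes were near the floor of detection. Ccl19, a chemokine of lymphoid tissue (1.00, SE 0.30), Pcdhb19, a protocadherin (1.15, SE 0.37), Fam109b (1.01, SE 0.35) and Plcd1, a phospholipase C (1.00, SE 0.37), had medians of 0.477 to 0.633 CPM in formalin and 0.211 to 0.354 CPM in ethanol. Gm10653 was lower in 12 of 12 mice, with a median of 0.375 CPM in formalin and 0.951 CPM in ethanol (−1.45, SE 0.27, edgeR adjusted p = 1.03e-04). Hspa1a, the inducible Hsp70, ranged over 0.234, 1.31 and 2.10 CPM in formalin and 1.17, 2.22 and 16.5 CPM in ethanol (−1.21, SE 0.39, edgeR adjusted p = 0.0348). The highest value was that of Con mouse 8A, whose difference was −5.23, and without it the log2 fold change was −0.76. Leaving out 1 mouse ended the call for Hspa1a (20D, 80B, 82B, 8C or 90C), Fam109b (18B, 21C, 75C, 80B, 8C or 90C), Plcd1 (18B, 18D, 20D, 80B, 82B or 8A) and Pcdhb19 (21C).

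Of the 20 heat shock genes, chaperones that bind unfolded protein, 10 were lower and 0 higher (median −0.11, turning positive with the total count). Hspb1, the small chaperone Hsp27, had equal medians (4.24 CPM in formalin and 4.25 CPM in ethanol) and a log2 fold change of −0.48 (SE 0.12), and 9 of 12 mice were lower. Of 21 immediate early genes, transcription factors made within minutes of a stimulus, 2 were higher and 3 lower (−0.01, and 0.12 with 2 higher and 0 lower with the total count). Under TMM these shares were near those of all genes (12.1% higher and 15.8% lower). Other large falls seen in 12 of 12 mice were Lrrc24 (−0.68, SE 0.15), the trehalose-splitting enzyme Treh (−0.68, SE 0.19), Kctd13 (−0.59, SE 0.16) and, among solute carriers, the zinc importer Slc39a4 (−0.48, SE 0.051). Of 225 solute carriers, a list chosen after values had been seen, 61 were lower and 12 higher, but 21 were lower and 46 higher with the total count, and 31 and 29 without genes above 1% of a library. A pair of class I histocompatibility genes also fell, Gm8909 (−0.95, SE 0.13) and H2-Q9 (−0.54, SE 0.073), which share sequence with close copies and are uncertain for the same reason as Mup genes.

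Difference between fixatives followed the base composition of the transcript. Of 13274 genes with a matched GENCODE transcript, the 10% with the lowest GC content (32.8 to 41.8%) had a median log2 fold change of 0.16, with 42.4% called higher and 1.20% called lower. The 10% with the highest GC content (58.1 to 72.3%) had a median of −0.15, with 0.828% called higher and 33.7% lower. The medians fell at every step between. Across genes, which are not independent replicates, Pearson's r of log2 fold change with GC content was −0.468 (Spearman's rho −0.513).

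Length went the other way and less steeply. The shortest 10% (up to 1219 bases) had a median of −0.06 and the longest (from 6538 bases) of 0.10, and r with log2 length was 0.225. Low-GC transcripts tended to be long (r = −0.217 between GC content and log2 length). A smooth trend in GC content, length and level together held 34.7% of the variance of log2 fold changes across genes. After this trend was removed, an alternative chosen after seeing the data, the medians were −0.16 for complement and coagulation, −0.08 for plasma carriers, −0.16 for the stress genes, −0.13 for the ER genes, −0.24 for histones, 0.04 for zinc finger proteins and 0.30 for endothelial markers. The sign turned for cytosolic ribosomal proteins (0.02), respiratory subunits (0.04), fatty acid oxidation (0.03) and hepatocyte markers (0.02), among others.

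**Figure D4:**
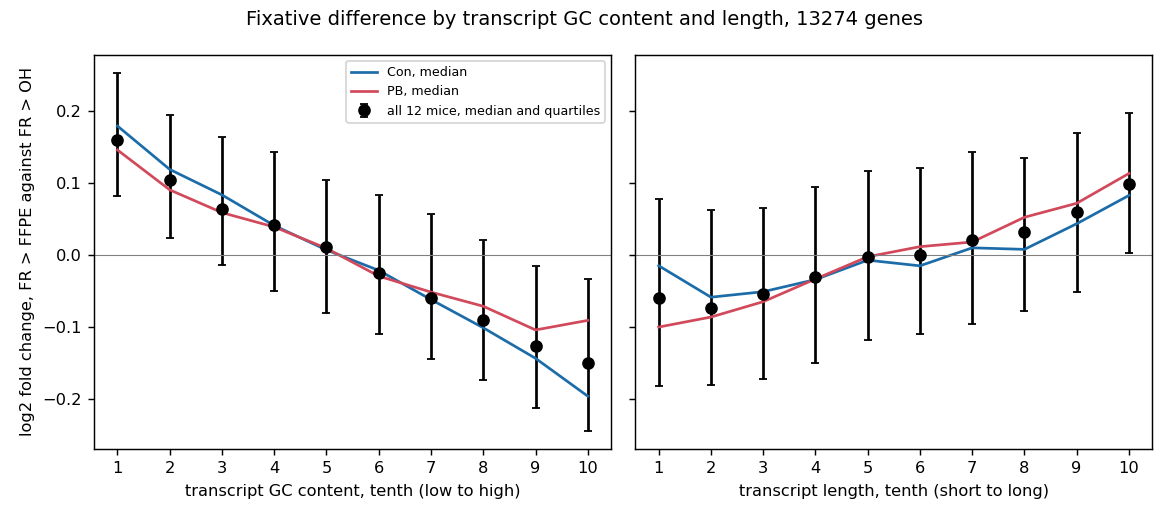
Log2 fold change of FR > FFPE against FR > OH in 10 bins of transcript GC content (left) and length (right), about 1327 genes in each. Black points and bars are the median and quartiles from all 12 mice, and lines are the medians in Con (blue) and PB (red). Medians go from 0.16 at the lowest to −0.15 at the highest GC content and from −0.06 for the shortest to 0.10 for the longest transcripts.

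A pair of genes serves as an example of the contrast, which not every called gene followed. Usp35, for 1, was higher in formalin (0.55, at medians under 2 CPM) with 58.6% G and C. The stretches below are the middle 120 coding bases of F12, which had the smallest adjusted p of all genes lower in formalin, and of Zfp715, among the 5 with the smallest adjusted p of those higher, in GENCODE M21 transcripts with G and C in capitals. The F12 stretch (coding bases 835 to 954 of 1791) has 74 G or C of 120 (61.7%) and that of Zfp715 (coding bases 1270 to 1389 of 2658, chromosome 7, 43296197 to 43313294, GRCm38, minus strand) has 46 (38.3%). Whole transcripts had 58.5% for F12 and 40.1% for Zfp715.
F12: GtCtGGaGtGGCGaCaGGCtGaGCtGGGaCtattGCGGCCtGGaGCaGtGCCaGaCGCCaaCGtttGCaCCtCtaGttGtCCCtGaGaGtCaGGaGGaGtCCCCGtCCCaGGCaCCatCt
Zfp715: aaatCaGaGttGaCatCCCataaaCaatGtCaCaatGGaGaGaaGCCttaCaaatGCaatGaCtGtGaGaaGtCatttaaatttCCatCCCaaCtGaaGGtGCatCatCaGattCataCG

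Libraries as a whole moved accordingly. The mean GC content of transcripts, weighted by their counts and without Rn45s, was 47.98 to 49.29% (median 48.5%) in FR > FFPE and 48.6 to 49.4% (median 48.97%) in FR > OH, lower in formalin in 11 of 12 mice (mean difference −0.412 points, SD 0.299, exact sign-flip permutation p = 0.00146, adjusted p = 0.00209). The weighted length was greater in formalin in 12 of 12 mice, by 110 bases on average (SD 93.6, exact permutation p = 4.88e-04, adjusted p = 0.00122). The fragmentation step was shortened for FFPE samples. Whether FR > OH samples had the same time is not given in the sources used here, and its part in these differences was not tested.

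Fixative differences were found in both treatments. In Con mice 2250 genes (16.8%) were called, 916 higher and 1334 lower in formalin, and in PB mice 2029 (15.2%), 784 higher and 1245 lower. Of 1028 genes called in both, 1015 had the same direction. The 2 sets of mice share no animal. Without mouse 90C, 8A or 8D the Con count was 1350, 1369 or 1474, and without mouse 18B the PB count was 1143. Among the lists, plasma carriers had medians of −0.18 in Con and −0.36 in PB, complement and coagulation −0.20 and −0.33, and zinc finger proteins 0.11 and 0.16.

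The difference between fixatives itself differed between treatments for 46 genes (0.344%, 1284 at an unadjusted p under 0.05), by the interaction in edgeR's quasi-likelihood fit. In 42 the effect was lower in PB, and in 33 of these it was positive in Con and negative in PB. Of the 46, 8 were cytochromes P450, 4 conjugating enzymes, 3 Mup genes, 2 proteasome subunits and 2 plasma carriers. Over whole lists, P450 medians were −0.01 in Con and −0.24 in PB, conjugating enzymes 0.01 and −0.20, proteasome subunits 0.03 and −0.16, respiratory subunits 0.02 and −0.15, Mup genes 0.41 and −0.10, and markers of pericentral hepatocytes, the zone where phenobarbital-responsive enzymes are concentrated, 0.15 and −0.31.

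Cyp1a2, a pericentral P450 that metabolises caffeine, had the smallest adjusted p of the interaction together with Cyp3a11 and Rgn. In Con it ranged over 240, 254 and 377 CPM in formalin and 221, 280 and 423 CPM in ethanol, and in PB over 682, 833 and 896 CPM in formalin and 1115, 1225 and 1411 CPM in ethanol. Formalin and ethanol overlapped in Con and were apart in PB, with log2 fold changes of −0.05 (SE 0.061) and −0.63 (SE 0.060), a difference of −0.58 (SE 0.086, edgeR adjusted p = 7.65e-04). Cyp3a11, a main drug-oxidising P450, had 0.38 (SE 0.070) in Con and −0.26 (SE 0.060) in PB. Rgn, a calcium-binding lactonase of ascorbate synthesis, ranged in Con over 575, 599 and 846 CPM in formalin and 357, 438 and 546 CPM in ethanol, without overlap (0.55, SE 0.058). In PB its groups overlapped (−0.00, SE 0.057). Mup15 (0.49 in Con, −0.11 in PB) and Cyp2e1 (0.14 and −0.36), which oxidises ethanol, completed the 5 smallest.

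Treatment and lane cannot be told apart here, since all PB pairs had lane numbers 4 and 5 and all Con formalin libraries had 3. Con mice of the 2 lane combinations gave Mup medians of 0.38 and 0.40 and PB mice −0.10. Some other lists differed more between the same Con combinations. Pericentral markers had 0.06 and 0.25 (PB −0.31), periportal markers −0.05 and −0.39 (PB −0.08) and P450 genes 0.06 and −0.03 (PB −0.24). Both Con combinations had formalin lane 3, so comparing them cannot separate lane from treatment. The count rested on few animals: without mouse 21C it was 189, and it was 22 to 24 without 18B, 20B, 80B, 82B or 90C. Cyp2b10 itself was lower in formalin in both treatments (−1.15, SE 0.37, at under 3 CPM in Con, and −0.41, SE 0.063, in PB), and so was the phenobarbital-induced carboxylesterase Ces2a (−0.43, SE 0.050, over all 12 mice).

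**Figure D5:**
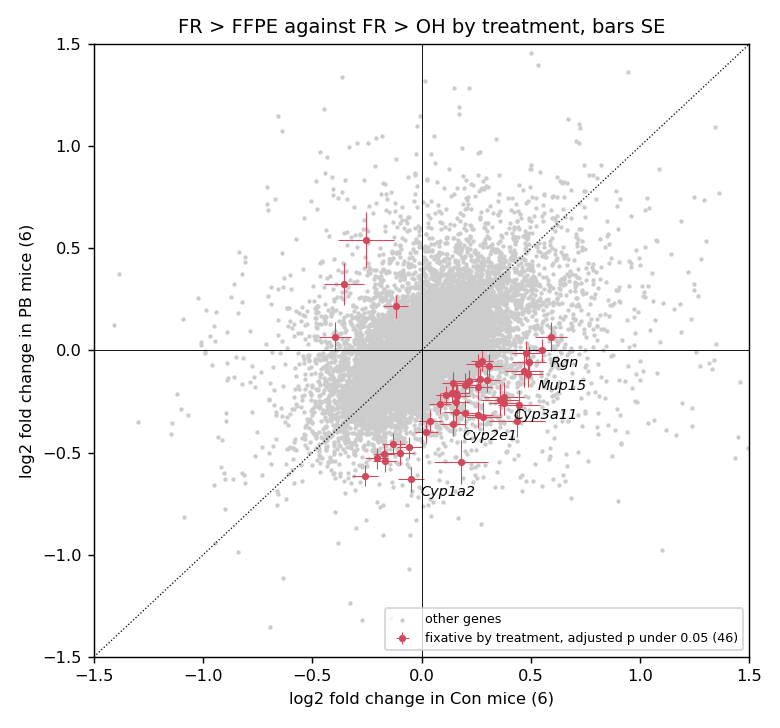
Log2 fold change of FR > FFPE against FR > OH in 6 Con mice (horizontal) and 6 PB mice (vertical) for each gene, with the 46 genes of the interaction in red (bars are standard errors). Points on the dotted line differ alike in both treatments. Most red points lie to the right of 0 and below it, 5 are named, and 11 genes are outside the axes.

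Frozen pieces of the same livers (FR, 12 samples) and directly fixed ones (FFPE, 12 samples) place the 2 fixatives. FR > OH and FR > FFPE are compared with the same FR samples, so only the values are given side by side. Complement and coagulation genes had medians against FR of −0.36 in FR > OH, −0.63 in FR > FFPE and −0.84 in FFPE, and plasma carriers −0.55, −0.88 and −1.24. Zinc finger proteins had 0.11, 0.31 and 0.25, and all genes −0.00, 0.03 and 0.04. All medians of the secreted-protein lists were below FR. Mup genes had −0.83, −0.69 and −1.07.

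Single genes had different orders. F12 was at −0.04 against FR in FR > OH, −0.54 in FR > FFPE and −0.73 in FFPE. Os9 was at 0.13, −0.37 and −0.21, and Atf5 at 1.04, 0.55 and 1.45, above FR in all 3. Rn45s was at 2.69, 1.98 and 3.73, and endothelial markers had medians of −0.71, −0.48 and −0.13. From the lowest to the highest of 10 bins of GC content the median against FR went from −0.20 to 0.42 in FR > OH and from −0.02 to 0.29 in FR > FFPE. FR samples were extracted by another method, so extraction and fixation cannot be told apart in these values.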

How the data were processed

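Liver RNA of 12 mice was sequenced after freezing and fixation in formalin or ethanol. The authors deposited expected counts per RefSeq gene, estimated by expectation maximisation in Partek from reads aligned to mm10 (GRCm38), with CASAVA 1.8.2 and STAR 2.5.3a per the submitters' processing notes. They also deposited log2 CPM, used here for 1 alternative and for its implied totals. Of the 24543 genes of the count table, 13370 with a geometric mean count above 1 over the 48 libraries of mouse liver (1e-04 added) were tested, as many as the log2 CPM table holds.

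Counts were rounded to whole numbers (92% of values were whole already), scaled by TMM and fitted with edgeR 4.0.16 (R 4.3.3; quasi-likelihood, mouse and fixative as terms, Benjamini-Hochberg adjusted p under 0.05). Further fits took the fixative within Con and PB mice and their interaction. Alternatives used DESeq2 1.42.0 and limma 3.58.1. The tests were also run on simulated counts, drawn from the fitted means and dispersions with no lane effect, and the outcome is not given here. Measures of a library were compared by exact two-sided sign-flip permutation over 12 pairs, adjusted over 10 measures (Python 3.11.15, scipy 1.17.1). Transcript sequences were GENCODE M21, matched for 13274 genes (99.3%). Total counts were 5534973 to 11539026. Standard errors (SE) come from the quasi-likelihood fit, which moderates each gene's spread over mice towards that of other genes. SDs of library measures are those of the 12 within-mouse differences.

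Libraries pair by mouse, as their titles give the animal, and deviations of same-mouse libraries correlated at 0.654 to 0.851 (12 of 12 pairs, 8020 genes). The sources do not say that a mouse's pieces were replicated, so p-values measure the spread over these mice. Named genes were called genes with at least 1 CPM in either fixative and 1 direction in 12 of 12 mice (the 10 largest rises and falls), the 5 smallest adjusted p each way, genes called at 2-fold, the 2 largest called rises and falls of each list, up to 5 of the interaction, and Cyp2b10. The comparison and lists were chosen with earlier results of these data known. The lists of ER translocation, lysosome, solute carriers, glycolysis and chromatin modifiers were added after values had been seen. Other studies of the series were not used here. A few genes that the rule names are not reported here.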

Additional observations from a re-analysis of the deposited data

Results flagged for a closer look

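Of 186 groups of 6 mice examined by Dixon's criterion, 16 held a value far from the others, where chance gives about 1 in 20. Con mouse 21C accounted for 11 of them. Its formalin library had a total count of 5534973 (the next was 8812947), a count-weighted GC content of 49.3% and a distance of 0.460 from the other mice, and its ethanol library had a distance of 0.390, 3.93% of counts on complement and coagulation genes and 12.1% on plasma carriers. Its differences (log2, formalin minus ethanol) were −0.024 for Apoa1, −0.00394 for Apoe, −0.0572 for Col18a1, 0.236 for Rgn and 0.508 for Firre, where the next mouse had −0.498, −0.432, −0.51, 0.547 and 0.187.

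PB mouse 18B stood below the other PB mice for F2 (−0.802), Fn1 (−0.668) and Slc39a4 (−0.847). Con mouse 8A did so for Hspa1a (−5.23, the next −1.16) and stood above for Ccl19 (1.91). The part of depth or of the piece of liver taken in these values was not tested.

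The fixative effect differed between treatments (PB minus Con, edgeR interaction) by −0.583 for Cyp1a2, −0.633 for Cyp3a11, −0.549 for Rgn, −0.603 for Mup15 and −0.502 for Cyp2e1, and lane cannot be told apart from treatment in them.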

How the results depend on the processing

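Without the replicate block (mouse pairing) 1453 genes were called in place of 3726, 215 in Con, 294 in PB, 0 for the interaction by edgeR (360 at an unadjusted p under 0.05, 120 by DESeq2 and 2 by limma with pairing) and 3 at 2-fold. With a lane term the counts were 0 over all mice (1364 at an unadjusted p under 0.05) and 0 at 2-fold, so no named gene kept a call. With that term Fam109b (−0.003679) and Rgn (−0.1174) turned sign. List medians were then −0.24 for complement, −0.28 for carriers, −0.24 for the ER genes and 0.11 for zinc finger proteins, −0.01 for Mup genes, 0.03 for snoRNAs and 0.53 for rRNA-derived loci; 13 of 44 lists moved beyond the spread over mice. Scaling gave 4041 (total count) and 3335 (without genes above 1% of a library) calls in PB, and 8 for the interaction with the total implied by the deposited values. Of all calls, 45.5% were higher in formalin with DESeq2 size factors, 78.7% without genes above 1%, 75.0% with implied totals and 75.1% with limma on the deposited log2 CPM, which changes test and scaling together, against 43.4%. At 2-fold, 19, 13 and 11 genes were called with the total count, without genes above 1% and with implied totals, 2 with DESeq2, 2 with filterByExpr, 15 with no filter and 13 after thinning.

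Leaving out 1 mouse gave 2991 to 4129 calls in all, 1350 to 3043 in Con, 1143 to 2569 in PB, 22 to 189 for the interaction and 3 to 12 at 2-fold. Con fell most without 90C (1350), 8A (1369) or 8D (1474), and PB without 18B (1143). Library differences then ranged from −0.468 to −0.368 for GC content, 93.9 to 119 bases for length, −0.00709 to 0.00261 for distance, 30.6 to 37.2 for genes with a count, −2.53 to −2.24 for the 10 largest genes, −0.776 to −0.692 for complement, 0.621 to 0.884 for Mup genes, −1.79 to −1.53 for carriers, −1.89 to −1.47 for rRNA-derived loci and −37110 to 422600 for total count. Without genes above 1% of a library, which takes out Rn45s, the rRNA-derived difference was 0.000814. Of the 7 genes at 2-fold, 5 had medians under 1 CPM in both fixatives, where few reads limit the precision.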

Other observations

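Of gene classes not described above, 132 lincRNA genes had 20 higher and 1 lower in formalin (median log2 fold change 0.12), and 117 antisense genes had 11 higher and 0 lower (0.14). Of 18 snoRNA host genes 2 were higher and 0 lower (0.13). The shares higher of the latter 2 classes are below the 12.1% of all genes. Metallothioneins and selenoproteins had 5 lower and 0 higher of 13 (−0.08), and genes of glycolysis, gluconeogenesis and the urea cycle 14 lower and 1 higher of 29 (−0.10). Both of the latter medians turned positive with the total count. Of 17 circadian clock genes 1 was higher and 2 were lower (−0.05), fewer than the 27.9% of all genes that were called, and with the total count 6 were higher and 0 lower (0.08). Markers of periportal hepatocytes had 4 lower of 10 (−0.13) and those of pericentral ones 1 lower (0.01).

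Markers of other cells that a liver piece could hold were sparse: 3 of 13 lymphocyte, 3 of 7 mesothelial and 1 of 8 pancreatic markers were tested, and Prss2, Pnlip and Try4 were at 0 in all libraries, as was Ly6g of neutrophils.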
